A study of Homo sapiens with 4 samples.

Results

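The promoters of 10 genes on the short arm of chromosome 19, from MPV17L2 to ELL, were examined in MORC2 knockout (KO) and wild-type (WT) cells. The genes are MPV17L2, PDE4C, IQCN, JUND, LSM4, PGPEP1, GDF15, LRRC25, SSBP4 and ELL, and they are 10 of the 28775 rows of the promoter count table. They were chosen by their KO and WT fragment counts in these 4 libraries, as a run of neighbouring promoters that were lower in KO cells. Their KO to WT differences are therefore given as a description. No p-value of a member is printed, and where the test fitted to the whole table called a member, the call is counted but nothing is drawn from it.

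ATAC-seq, which reads out where Tn5 transposase can insert adaptors into exposed DNA, served to measure accessibility. The cells were HEK293T, a transformed human embryonic kidney line, with 2 MORC2 KO and 2 WT libraries and no further treatment in either group. Each KO library came from an uncloned pool of cells that had received Cas9 protein with 1 guide RNA against MORC2, and the guide differed between the pools, so guide and KO replicate cannot be told apart. WT cells are described as wild type, and no control guide is named for them. A difference in fragment count can reflect the number of cells with an open promoter or the openness per cell, and in bulk libraries these cannot be told apart.

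MORC2 is a nuclear ATPase that compacts DNA and acts with the HUSH complex, which silences transposons and other genes within heterochromatin. It also occupies promoters in open chromatin, and an ATAC-seq fragment count at a promoter reports how exposed that DNA is, not how much RNA is made from it. The run holds genes of unlike function. JUND encodes an AP-1 transcription factor, ELL an elongation factor of RNA polymerase II, and GDF15 a secreted stress hormone, while LSM4 belongs to the LSM rings that bind RNA and MPV17L2 acts in the mitochondrion.

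Total promoter counts were 9435801 to 15152636 fragments per library, of which mitochondrial rows held 20.6% in KO replicate 2, the deepest library, and 31.8% to 35.1% in the other 3. The promoter of MORC2 itself had 37.0 and 37.5 CPM (fragments per 1000000 in the library) in the KO libraries and 25.7 and 29.6 CPM in the WT libraries, given as here throughout with replicate 1 first (log2 fold change 0.43, SE 0.087, edgeR adjusted p = 0.000279). It was higher in KO cells, and a promoter count does not check whether the protein is lost. The study measured knockout efficiency by western blot in the cells of both guides. All CPM values here are scaled by the TMM method, and all fold changes are log2 of KO over WT.

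The data went against both parts of the name under which the run was chosen. The promoters did not fall together: 9 of the 10 had a log2 fold change below 0, but IQCN was higher in KO cells, PGPEP1 differed between groups by less than its replicate spread, and for LRRC25 the replicates differed more than the groups. Nor were they consecutive, because 6 further counted rows (RAB3A, LOC102725254, CIST1, MIR3188, MIR3189 and ISYNA1) lie among them in RefSeq gene order.

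Promoter sequences for 8 of the 10 genes were matched in RefSeq (GRCh38.p14), in windows of 250 bases before to 50 after a start site. PGPEP1 and SSBP4 had no entry. The 250 bases before the start are shown for 4 promoters that show both directions: IQCN, higher in both KO libraries than in both WT libraries, and JUND, ELL and GDF15, lower in both. All are on chromosome 19, with IQCN at chr19:18274453-18274702, JUND at chr19:18281623-18281872, GDF15 at chr19:18385908-18386157 and ELL at chr19:18522071-18522320. GDF15 is on the plus strand and the other 3 on the minus strand, and each sequence reads 5′ to 3′ towards the gene. Capitals mark matches, on either strand, to an AP-1 site (TGACTCA), a cAMP response element (CRE, TGACGTCA), a GC box (GGGCGG) or a CCAAT box (CCAAT).
IQCN: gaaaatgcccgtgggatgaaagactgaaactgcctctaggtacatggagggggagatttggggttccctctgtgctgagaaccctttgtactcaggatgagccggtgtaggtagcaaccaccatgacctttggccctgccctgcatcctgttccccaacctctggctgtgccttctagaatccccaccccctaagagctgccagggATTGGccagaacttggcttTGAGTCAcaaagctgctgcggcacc
JUND: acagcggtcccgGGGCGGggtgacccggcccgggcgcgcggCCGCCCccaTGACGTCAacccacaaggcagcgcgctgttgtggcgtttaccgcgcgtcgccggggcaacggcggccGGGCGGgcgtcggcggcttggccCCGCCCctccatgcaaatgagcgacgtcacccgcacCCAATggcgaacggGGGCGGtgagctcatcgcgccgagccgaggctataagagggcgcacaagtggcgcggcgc
GDF15: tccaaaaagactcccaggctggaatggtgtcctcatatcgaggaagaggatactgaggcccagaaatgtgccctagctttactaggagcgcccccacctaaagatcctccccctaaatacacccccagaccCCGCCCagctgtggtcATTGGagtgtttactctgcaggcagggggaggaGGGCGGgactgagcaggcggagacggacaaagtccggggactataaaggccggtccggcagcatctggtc
ELL: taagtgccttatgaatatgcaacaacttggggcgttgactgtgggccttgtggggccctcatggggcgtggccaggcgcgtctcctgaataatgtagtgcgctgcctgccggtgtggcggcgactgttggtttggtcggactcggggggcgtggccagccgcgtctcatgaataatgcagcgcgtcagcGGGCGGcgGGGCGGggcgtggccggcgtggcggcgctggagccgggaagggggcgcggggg

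IQCN had the fewest CpG dinucleotides of the 11 member windows, but windows of PDE4C, which was lower in KO cells, had nearly as few. Over the whole window of 300 bases IQCN had a GC content of 56.3% with 4 CpG dinucleotides, close to the median GC of 58.7% but under the median of 14 CpG among all 35116 RefSeq windows. It held 1 AP-1 match, found in 4.95% of all windows, and 1 CCAAT match, and no GC box. JUND had 77.0% GC, 49 CpG, 6 GC boxes and 1 CRE match, a motif in 1.85% of all windows. ELL had 67.0% GC, 31 CpG and 2 GC boxes, and LSM4 and MPV17L2 were alike with 70.7% and 62.7% GC and 44 and 36 CpG. GDF15 had 59.3% GC and 11 CpG with 2 GC boxes and 1 CCAAT match, and LRRC25 had 59.7% GC and 8 CpG. PDE4C has 4 windows, with a GC content of 55.0% to 68.0% and with 16, 5, 5 and 34 CpG. GC boxes occur in 45.0% and CCAAT boxes in 34.6% of all windows. No member window held the C/EBP-ATF letters TGATGCAA, which 0.866% of all windows hold. The matches describe the letters in these windows only, and neither occupancy nor any effect of composition was tested.

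Among the transcription regulators, JUND, which pairs with FOS proteins to form AP-1, had 55.2 and 57.1 CPM in KO (602 and 974 fragments) and 66.6 and 72.4 CPM in WT (641 and 654 fragments). Both KO libraries lay below both WT libraries. Its means were 56.2 ± 1.34 and 69.5 ± 4.15 CPM (SD, n = 2 each), and the log2 fold change was -0.30 (SE 0.068). The replicates differed by 0.05 on the log2 scale within KO and by 0.12 within WT. The group difference was larger than both, which the choice of JUND by its lower KO counts favours.

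ELL, which raises the rate at which RNA polymerase II transcribes and is a fusion partner of KMT2A in leukaemia, had 60.0 and 57.5 CPM in KO and 63.3 and 72.8 CPM in WT. The groups did not overlap, but WT replicate 1 was nearer to the KO libraries than to WT replicate 2. The log2 fold change was -0.21 (SE 0.068), and the WT replicates alone differed by 0.20. SSBP4, a partner of the LDB adaptor proteins, had 28.2 and 27.0 CPM in KO and 31.9 and 32.6 in WT. Here replicates were close, at 27.6 ± 0.795 and 32.2 ± 0.481 CPM (SD, n = 2 each), with a log2 fold change of -0.23 (SE 0.089).

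GDF15, a hormone of the TGF-β superfamily that signals through GFRAL and RET, had a thinly covered promoter with 80 and 129 fragments in KO and 86 and 92 in WT. These were 7.34 and 7.56 CPM in KO and 8.93 and 10.2 CPM in WT, with both KO values below both WT values. The log2 fold change of -0.35 (SE 0.16) was larger than that of JUND, with an error that was larger too. PDE4C, a phosphodiesterase that breaks down cAMP, was similar, with 6.24 and 6.10 CPM in KO and 7.06 and 8.97 in WT (log2 fold change -0.38, SE 0.18). The WT replicates of PDE4C differed by 0.34, nearly as much as the groups.

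LSM4, a subunit of the rings that act in splicing and in mRNA decay, had 32.4 and 33.4 CPM in KO and 36.3 and 36.0 in WT (log2 fold change -0.13, SE 0.083). MPV17L2, which is needed for assembly of the mitochondrial ribosome, had 61.4 and 57.9 CPM in KO and 62.6 and 67.7 in WT (log2 fold change -0.13, SE 0.068). In both the KO libraries were below the WT libraries, and in MPV17L2 the gap between KO replicate 1 and WT replicate 1 was smaller than the gap between replicates of either group. With libraries scaled by total count, both log2 fold changes were 0.00. That scaling placed the median of all tested promoters at 0.12 instead of -0.02, so relative to that median both stayed lower.

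IQCN, an IQ motif protein that binds calmodulin and is known from sperm, went the other way. It had 26.0 and 24.9 CPM in KO (283 and 424 fragments) and 16.4 and 21.0 in WT (158 and 190 fragments), with both KO libraries above both WT libraries. The means were 25.4 ± 0.773 and 18.7 ± 3.28 CPM (SD, n = 2 each) and the log2 fold change was 0.44 (SE 0.10). WT replicate 1 set much of its size: the fold change was 0.27 without that library and 0.63 without WT replicate 2. A ratio to its neighbour JUND needs no scaling of libraries. For every 100 JUND fragments there were 47.0 and 43.5 IQCN fragments in KO and 24.6 and 29.1 in WT. Since JUND was chosen for its lower KO counts, this ratio holds the difference of JUND as well as that of IQCN and is larger than that of IQCN alone. The same ratio was steadier for ELL, with 109 and 101 fragments per 100 of JUND in KO and 95.2 and 100 in WT, and for LSM4, with 58.6 and 58.5 in KO and 54.6 and 49.7 in WT.

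PGPEP1, which removes pyroglutamate from the ends of peptides, had 11.1 and 12.8 CPM in KO and 10.7 and 13.6 in WT, so the WT values enclosed the KO values. Its log2 fold change was 0.00 (SE 0.14). LRRC25, a leucine-rich repeat protein of myeloid cells, had 6.97 and 4.93 CPM in KO and 7.27 and 4.87 in WT. On the log2 scale replicate 2 differed from replicate 1 by -0.49 in KO and by -0.56 in WT, and KO differed from WT by -0.08 (SE 0.19).

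**Figure D1:**
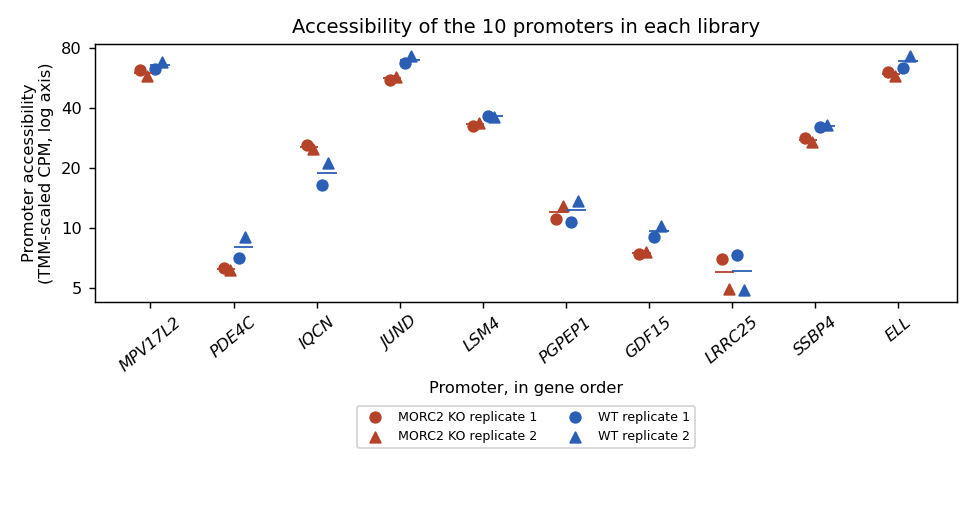
Promoter accessibility (TMM-scaled CPM, log axis) of the 10 promoters in gene order, with 1 point per library, circles for replicate 1 and triangles for replicate 2, and a bar at each group mean (KO red, WT blue). Both KO points lie under both WT points for 7 promoters, above them for IQCN, and among them for PGPEP1 and LRRC25.

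Levels are compared here on the footing that each row is a window of 2 kb, as the study defines a promoter, which was not checked for this table. In order of WT accessibility, JUND (69.5 CPM), ELL (68.1 ± 6.66) and MPV17L2 (65.1 ± 3.57) led, and their WT libraries overlapped. LSM4 (36.2 ± 0.249) and SSBP4 (32.2 ± 0.481) followed, then IQCN (18.7), PGPEP1 (12.2 ± 2.07), GDF15 (9.56 ± 0.89), PDE4C (8.02 ± 1.35) and LRRC25 (6.07 ± 1.69; SD, n = 2 each). The WT libraries of GDF15 overlapped those of PDE4C, and those of PDE4C overlapped those of LRRC25, while the other neighbours in this order were apart. The top 3 stood at the 92.6 to 94.1 percentile of all tested promoters by WT level and LRRC25 at the 34.3 percentile. Because fold changes in this table vary with level, each member was also set beside the median of promoters of similar mean CPM, in 10 classes of equal size. JUND, ELL and MPV17L2 lay in the highest class, whose median log2 fold change was 0.08, and PDE4C and LRRC25 in a class with a median of -0.18. Of the 10 members, 7 were below the median of their class, and IQCN, PGPEP1 and LRRC25 were above it. Below their class median were 13820 of all 27647 tested promoters and 1254 of the 1747 on chromosome 19. So were 24 of the 30 rows that flank the run, and the members were chosen for low KO counts.

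**Figure D2:**
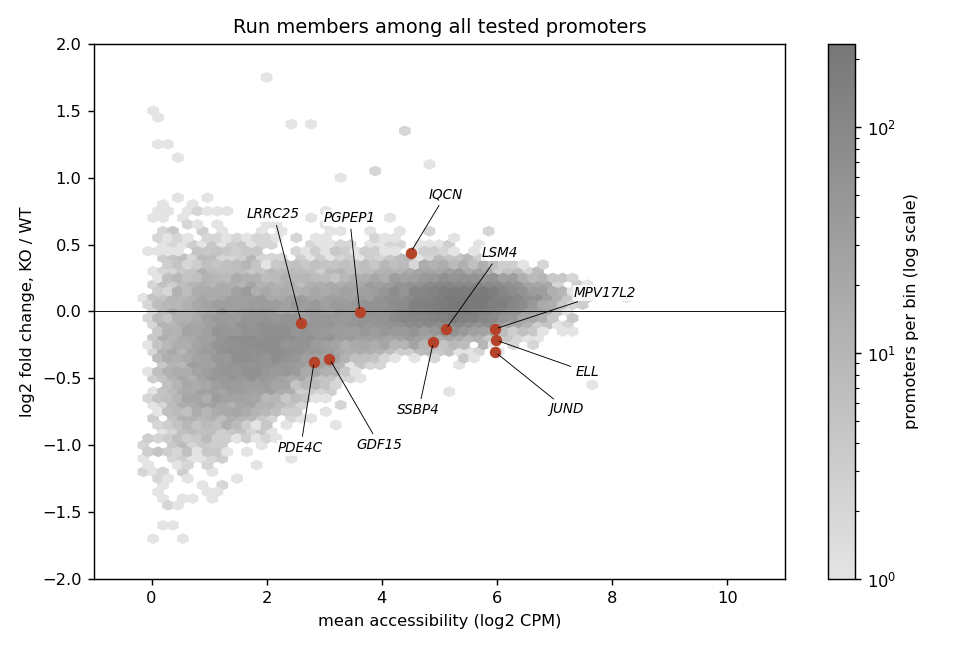
Log2 fold change of KO over WT against mean accessibility (log2 CPM) for all tested promoters as shaded bins, darker where more promoters fall (log scale), with the 10 members as red points; rows beyond the axes, such as mitochondrial ones, are not drawn. JUND, ELL and MPV17L2 sit on the lower side of the most accessible promoters, IQCN above the cloud's centre, and PDE4C and GDF15 in the range of low promoters where many lie below 0.

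The edgeR quasi-likelihood test over all 27647 tested promoters, adjusted by Benjamini-Hochberg, called 2 members lower in KO (JUND and ELL) and 1 higher (IQCN) at an adjusted p under 0.05. Of all tested promoters, 0.995% were called lower and 3.45% higher, which is 275 and 954 promoters. With offsets fitted along abundance (loess), 173 were called lower and 211 higher, and among the members 2 were lower and 1 higher. Total count scaling left 20 calls over the whole table, and the Wald test of DESeq2 left 7. The study tested windows, summarised them by promoter and reports far fewer differentially accessible genes than the edgeR fit used here. Both KO libraries lay below both WT libraries for 7 members and above them for 1, against 25.4% and 25.2% of all tested promoters. The members' median log2 fold change was -0.17, and that of all tested promoters was -0.02. These counts restate the values by which the run was chosen and are no test of it. Calls of single members depended on the analysis, and no member was called with total count scaling or with the DESeq2 Wald test. When 1 library was left out, the log2 fold change was -0.36 to -0.24 for JUND, -0.31 to -0.11 for ELL and 0.27 to 0.63 for IQCN. Such a fit leaves 1 library in a group, so calls in it are not weighed here.

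Summed over the 10 promoters, the KO libraries held 3213 and 4932 fragments and the WT libraries 2996 and 3071. As CPM of the nuclear promoter fragments, without further scaling, these were 419.4 and 409.8 in KO and 453.8 and 501.8 in WT. The WT libraries were higher, but differed from each other by more than WT replicate 1 differed from KO replicate 1.

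Rows inside the run that were not selected gave further values, though not all of them are separate measurements. The MIR3188 row, a microRNA locus beside JUND, had 43.8 and 44.9 CPM in KO and 55.4 and 56.5 in WT and was called lower (log2 fold change -0.33, SE 0.072). Its start lies less than 1 counting window of 2 kb from that of JUND in RefSeq, and its counts were within 25% of those of JUND in every library, so the rows can hold the same fragments. JUND was chosen by these fragments, so the call of MIR3188 is a description too. No p-value is printed for a row that starts within 1 window of a member. The call of MIR3188 was lost without KO replicate 2. CIST1 beside PDE4C and LOC102725254 beside RAB3A likewise had close start sites and similar counts, and none of these 3 non-members was called. CIST1 differed by -0.35 on the log2 scale, LOC102725254 by -0.08 (edgeR adjusted p = 0.505) and RAB3A by -0.09 (edgeR adjusted p = 0.463). MIR3189, which starts within 1 window of GDF15, differed by -0.42 with 48 to 76 fragments per library and was not called. ISYNA1, which makes inositol phosphate, had counts within 25% of those of SSBP4 and differed by -0.14 (edgeR adjusted p = 0.357). All 6 were below 0, with a median of -0.24, and 1 was called. Because MIR3188, CIST1 and MIR3189 start within 1 window of a chosen member, these counts are no separate test of the run. Of all tested promoters 53.3% were below 0 and 0.995% were called lower, and of those on chromosome 19 78.4% and 3.61%.

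The 15 counted rows on each side were examined in the same way. Of these 30 flanking rows 25 were below 0, with a median log2 fold change of -0.10 and a range of -0.32 to 0.10. The KO libraries were below the WT libraries in 10 of them (33.3%) and above them in none. Of all tested promoters 25.4% lay below and 25.2% above, and of those on chromosome 19 40.9% and 8.82%. The test called 1 flanking row lower and none higher, against 0.995% and 3.45% of all tested promoters. An unadjusted p under 0.05 was found for 7 rows, a level that 20.3% of all tested promoters reached. The called row was KLHL26, a kelch-like protein, with 37.3 and 35.9 CPM in KO and 39.0 and 48.6 in WT (log2 fold change -0.26, SE 0.078, edgeR adjusted p = 0.0297). WT replicate 2 stood apart from the other 3 libraries there, and KLHL26 was not called without it or without either KO library. The median before the run was -0.13 and after it -0.08.

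**Figure D3:**
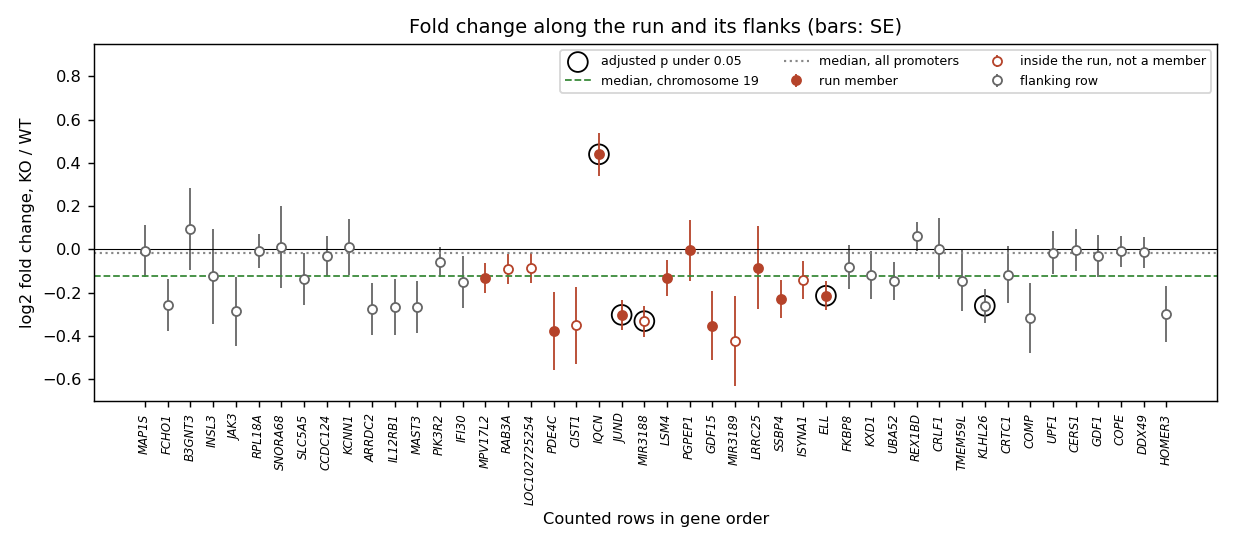
Log2 fold change of KO over WT (bars, SE) for the 16 counted rows of the run and 15 rows on each side, in RefSeq gene order with equal spacing; filled red points are members, open red points other rows of the run, grey points flanking rows, and rings mark an adjusted p under 0.05. Most rows on both sides lie below 0, near the dashed median of chromosome 19, and IQCN is the row furthest above 0.

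Values below 0 were also the rule over the whole chromosome, the run and its flanks included. Over 1747 tested promoters of chromosome 19 the median log2 fold change was -0.12, and 78.4% were below 0, against 53.3% of all tested promoters. The test called 63 of them lower (3.61%) and 21 higher. Chromosome 19 had the lowest median of the 22 autosomes and X, followed by chromosome 17 (-0.10) and chromosome 20 (-0.08), and chromosome 4 had the highest (0.07). This order of chromosomes was examined after the values of the run were seen. It was the lowest in each of 13 alternative analyses, with a distance to the median of all promoters between -0.16 and -0.06. HEK293T cells are aneuploid. Whether copy number differed between the KO and WT cells, or the recovery of fragments by base composition between the libraries, was not tested.

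**Figure D4:**
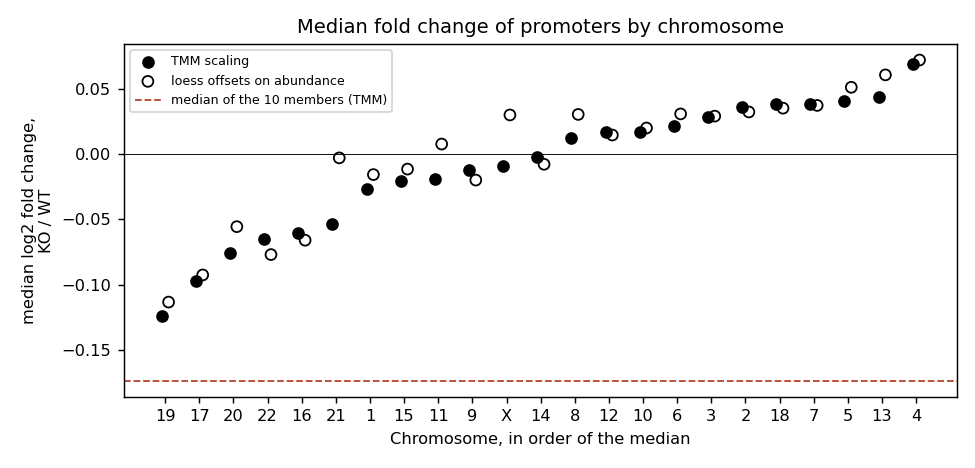
Median log2 fold change of KO over WT for the tested promoters of each autosome and X, in order of the median, with filled circles for TMM scaling, open circles for loess offsets along abundance and a dashed line at the members' median under TMM. Chromosome 19 is the lowest at -0.12 and chromosome 4 the highest at 0.07, and the members' median of -0.17, from promoters chosen for low KO values, lies below it.

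Genes that act with the members were examined to see whether the promoters of their pathways moved as well. In 7 lists of 71 genes, all tested, 5 promoters were called higher and 1 lower in KO, against 3.45% higher and 0.995% lower of all tested promoters. The median log2 fold change of the 71 was 0.05, and 18 had an unadjusted p under 0.05, a level reached by 20.3% of all tested promoters. These calls depended on the analysis: with loess offsets only the lower call, PPP1R15A, remained, and with total count scaling none did. The called promoters kept their sign in all 13 alternative analyses. PRKACB ranged from 0.19 to 0.39, RET from 0.23 to 0.42 and PPP1R15A from -0.47 to -0.06. A fit without 1 library leaves 1 in that group, so a call lost there does not show that it rested on that library.

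For JUND, the 14 AP-1 genes, which include its dimer partners, the JNK kinases and menin, gave no call in either direction and none at an unadjusted p under 0.05. DESeq2, run on the same counts, called none of the 71 listed promoters. It called only 7 promoters in the whole table, so its lack of calls in the lists shows nothing about them. The AP-1 median was 0.05 and the largest change among listed genes with a mean count of at least 50 was that of JUNB (log2 fold change 0.16, edgeR adjusted p = 0.302). JUN had 157 and 163 CPM in KO and 162 and 166 in WT, and FOS had 53.7 and 57.2 in KO and 53.3 and 51.5 in WT. For ELL, none of 13 elongation genes passed the test and 3 had an unadjusted p under 0.05, a level that 20.3% of all tested promoters reached. The largest change was that of MLLT1, a subunit of the super elongation complex (-0.21, edgeR adjusted p = 0.19). ELL2, a paralogue of ELL, differed by 0.15 (edgeR adjusted p = 0.142).

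For GDF15, 3 of 16 genes of its receptor and of the stress response that induces it were called higher and 1 lower. Of all tested promoters 3.45% were called higher and 0.995% lower. An unadjusted p under 0.05 was found for 8, a level that 20.3% of all tested promoters reached. All 3 higher calls were lost with loess offsets. RET, its co-receptor kinase, had 34.8 and 34.1 CPM in KO and 29.4 and 27.0 in WT (log2 fold change 0.28, SE 0.088, edgeR adjusted p = 0.0352). EIF2AK3 (PERK), a sensor of unfolded protein, rose by 0.21 on the log2 scale (SE 0.062, edgeR adjusted p = 0.0299), and TRIB3, a target of ATF4, rose by 0.31 (SE 0.096, edgeR adjusted p = 0.0378). PPP1R15A (GADD34), which reverses the phosphorylation of eIF2α, fell, with 30.1 and 28.3 CPM in KO and 30.3 and 40.2 in WT (log2 fold change -0.28, SE 0.087, edgeR adjusted p = 0.0395). KO replicate 1 and WT replicate 1 were nearly equal there, and without WT replicate 2 the fold change was -0.06. The receptor GFRAL had 12 to 22 fragments per library, too few to show a change of this size.

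For PDE4C, 2 of 13 cAMP genes were called higher and none lower, against 3.45% and 0.995% of all tested promoters. An unadjusted p under 0.05 was found for 6, with changes in both directions, a level that 20.3% of all tested promoters reached. Both calls were lost with loess offsets. PRKACB, a catalytic subunit of protein kinase A, had 69.2 and 74.1 CPM in KO and 60.8 and 59.1 in WT (log2 fold change 0.26, SE 0.067, edgeR adjusted p = 0.00867). PDE3A, another phosphodiesterase, had 42.4 and 46.9 CPM in KO and 38.9 and 35.3 in WT (0.28, SE 0.078, edgeR adjusted p = 0.0186). By the same count minimum the largest change was that of PRKAR1A, a regulatory subunit that did not pass the test (0.36, edgeR adjusted p = 0.119). Of the paralogues, PDE4D differed by -0.80 with 20 to 36 fragments per library (edgeR adjusted p = 0.0712) and PDE4A by -0.19 (edgeR adjusted p = 0.196).

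The remaining lists gave no call. Among 8 genes of the LSM rings and their partner the median log2 fold change was 0.03, with 1 at an unadjusted p under 0.05, and LSM1 changed most (0.16, edgeR adjusted p = 0.159). The 3 relatives of MPV17L2 were led by MPV17 (0.13, edgeR adjusted p = 0.304), and the 4 genes of the LDB complex by SSBP3 (-0.22, edgeR adjusted p = 0.262). Neither of these had a member at an unadjusted p under 0.05.

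**Figure D5:**
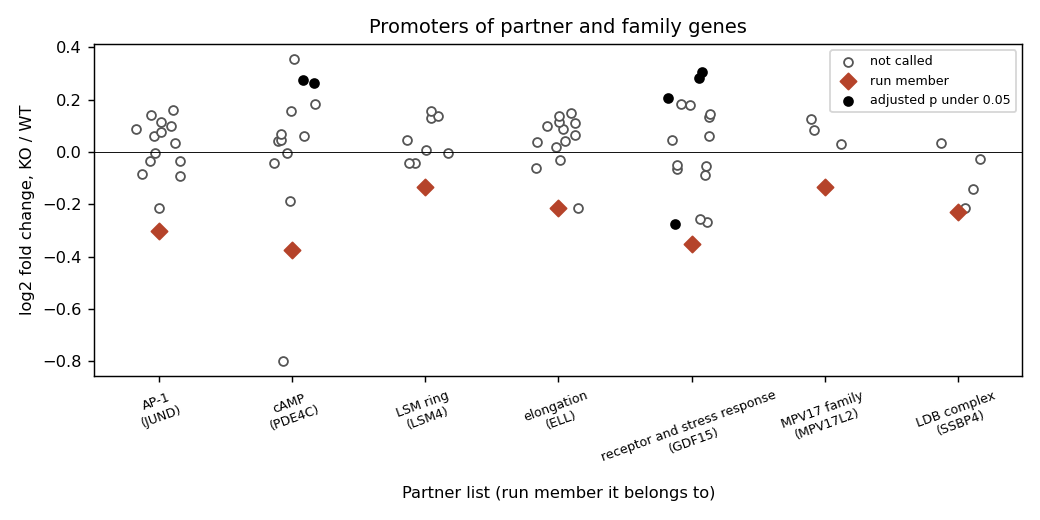
Log2 fold change of KO over WT for the 71 promoters of the 7 lists of genes that act with run members, with filled circles for called promoters, open circles for the others, and a diamond for the run member that each list belongs to. Most points lie close to 0; the calls are in the list of GDF15 (EIF2AK3, RET and TRIB3 higher, PPP1R15A lower) and in that of PDE4C (PRKACB and PDE3A higher).

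Outside the run and its flanks, the 3 promoters nearest to the members' mean profile across the 4 libraries lay on other chromosomes. That mean takes in IQCN, which was higher in KO, together with the members that were lower. The mean profile of the members, as log2 CPM centred on each promoter's own mean, stood at -0.04 and -0.09 in KO and at 0.01 and 0.12 in WT. WT replicate 2 was thus furthest from the others. Of 19787 promoters outside the run and its flanks with a mean count of at least 50, FADS6 on chromosome 17 was the nearest (Euclidean distance 0.00578 in log2 units), followed by ALG12 on chromosome 22 (0.00961) and DNAJC28 on chromosome 21 (0.0124). ALG12, an enzyme of N-glycosylation, had 46.9 and 45.8 CPM in KO and 48.8 and 52.5 in WT. None of the 3 was called (log2 fold changes -0.14, -0.13 and -0.14 and edgeR adjusted p = 0.714, 0.294 and 0.282). FADS6 had only 57 to 94 fragments per library, so its rank as the nearest is uncertain.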

How the data were processed

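ATAC-seq was carried out by the Omni-ATAC protocol on HEK293T cells, with 2 MORC2 KO and 2 WT libraries. The study describes the WT replicates as independent and the KO replicates as cells made with different guides. After trimming with Trim Galore, the authors used bowtie2 to align reads to the telomere-to-telomere assembly CHM13, and they kept properly paired reads of good mapping quality and removed duplicates with Picard. The table they deposited holds raw fragment counts for each promoter, which were not normalised and are listed by NCBI Gene ID. The study defines a promoter as a window of 2 kb around the start, and how the counts of this table were made is not given in the sources used here. The deposited WT peak list was not used here, as no CHM13 annotation was at hand.

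Symbols and gene order came from RefSeq on GRCh38.p14, which matched 28763 of 28775 rows. Because that build differs from CHM13, it gave only names, order, chromosomes, promoter sequences and whether start sites are closer than 1 window. Rows were filtered with filterByExpr (27647 kept), scaled by TMM and tested in edgeR 4.0.16 (R 4.3.3) by the two-sided quasi-likelihood F-test with the legacy fit and without covariates, over all 4 libraries. P-values were adjusted by Benjamini-Hochberg over all tested rows, with a threshold of 0.05. Standard errors were derived from the F statistics, and the fit was checked on simulated counts. An exact permutation test of 2 against 2 libraries cannot give a two-sided p below 0.333, so sums and ratios over the 4 libraries were not tested, and single promoters only in the fit across all rows. Chi-square per degree of freedom, which is about 1 under counting noise alone, was 1.20 between the KO replicates and 1.33 between the WT replicates. The replicates thus differed by little more than counting noise. The edgeR p-values rest on this small spread, which does not show how far independently grown cells would vary. Alternatives were another scaling, filter, tool (DESeq2 1.42.0) or fit, a replicate block, and leaving out each library.

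The 10 members and all lists were chosen with earlier results of these data known. Named were all members, every other row inside the run, called flanking rows, called genes of the lists and, per list, the gene with the largest absolute log2 fold change at a mean count of at least 50, and the 3 promoters nearest in profile. JUN, FOS, ELL2, PDE4A, PDE4D, GFRAL and MORC2 were named outside that rule, after their values were seen.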

Additional observations from a re-analysis of the deposited data

How the results depend on the processing

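No log2 fold change of JUND, ELL, IQCN, GDF15, PDE4C or SSBP4 changed sign in 13 alternative analyses, whereas MPV17L2 and LSM4 did so in 1, LRRC25 in 4 and PGPEP1 in 5. Over the whole table, in place of 1229 calls, total count scaling gave 20, loess offsets 384, a mean count of at least 50 gave 787 and the DESeq2 Wald test 7, against 41 (without KO replicate 2) to 1637 (without WT replicate 1) when 1 library was left out. Total count scaling and DESeq2 called 0 members lower, 0 rows around the run and 0 of the listed promoters; unadjusted p-values under 0.05 then numbered 1 and 3 among the members, 0 and 2 around the run and 7 and 5 in the lists. The edgeR 4 fit called 1 member lower and 1 row around the run. Listed promoters called numbered 1 with loess offsets and 3 at a mean count of at least 50, in place of 6. Leaving out 1 library gave 0 to 2 members called lower, 0 to 5 rows around the run and 0 to 8 listed promoters. The members' median was -0.0399 with total count scaling, where that of all promoters was 0.12, and -0.23 to -0.16 in the other 12. With the replicate block, 765 promoters were called in all, 1 member lower and 2 listed promoters. The replicate numbers do not pair the libraries, as deviations of same-numbered libraries correlated at 0.018 and the samples share only a number. With 2 libraries a group, depth limits GDF15, PDE4C and LRRC25 most.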
